A study of Homo sapiens with 26 samples.

Results

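The subject is the difference between the responses of clone 4 and of parental A375 cells to CPI203, taken gene by gene as the clone 4 effect (CPI203 minus DMSO) minus the parental effect. A375 is an established line of human melanoma cells that carries mutant BRAF. CPI203, a small molecule, occupies the bromodomains of the BET proteins and keeps them off chromatin. The difference rests on 8 of the 26 RNA sequencing libraries of the series: clone 4 after 6 h with 1 uM CPI203, clone 4 after 6 h with DMSO, parental cells after 6 h with 1 uM CPI203, and parental cells after 6 h with DMSO, 2 libraries of each. Clone 4 is a single clone derived from A375 that the sample titles call resistant and that the series describes as tolerant to BET inhibition. Whether clone 4 was kept in CPI203 before the 6 h treatment is not given in the sources used here. Pairs of untreated libraries (0 h) of clone 4 and of parental cells, which do not enter the difference, served as a separate measure of the level from which each population started. The submitters' table gives FPKM, the fragments of a gene scaled to its transcript length and to the number of mapped fragments, and differences below are on the log2(FPKM + 1) scale.

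BET proteins bind acetylated histones at enhancers and promoters and help recruit P-TEFb, the kinase complex that releases paused RNA polymerase II. Their inhibition lowers genes that depend on strong enhancers, and typically raises HEXIM1, the inhibitor of P-TEFb, and histone genes. Cells that survive prolonged BET inhibition can do so with a changed program of transcription. The comparison here separates genes whose level under DMSO had already moved in clone 4 from genes that started at a like level and then responded differently.

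Among the 16935 genes that reached 1 FPKM in 2 or more of the 18 A375 libraries, 75 (0.443%) had a CPI203 effect that differed between clone 4 and parental cells at an adjusted p below 0.05 (limma on log2(FPKM + 1), Benjamini-Hochberg adjustment over all genes). The clone 4 effect was the higher of the pair in 55 of them (0.325% of the genes tested) and the lower in 20 (0.118%). CPI203 itself changed 731 genes in clone 4 (4.32%, with 256 or 1.51% up and 475 or 2.8% down) and 5445 in parental cells (32.2%, with 2297 or 13.6% up and 3148 or 18.6% down), but the standard error of the clone 4 effect was larger, 0.23 at the median gene against 0.16 for the parental effect. The 2 clone 4 DMSO libraries, the 2 clone 4 CPI203 libraries and the 2 parental DMSO libraries lay further from each other than replicates elsewhere, with a median absolute difference of 0.280, 0.220 and 0.218 between replicates on the log2 scale, against 0.066 to 0.118 in the other 6 A375 groups. The model therefore gave each group a weight of its own. With equal weights for all libraries the count was 388, with only these 8 libraries in the fit it was 17, and without the 3 libraries that stand apart (clone 4 DMSO replicate 1, clone 4 CPI203 replicate 2 and parental DMSO replicate 1) it was 548. Leaving out clone 4 DMSO replicate 1 alone gave 117 genes, leaving out clone 4 DMSO replicate 2 gave 211, and leaving out any other single library gave 58 to 106.

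Part of the melanocyte gene list was expressed in all 4 groups. Of its 16 genes, only 6 were at 1 FPKM or more in each group except parental cells with DMSO, which had 7. MITF and SOX10, the master regulators of melanocytes, and S100B, MC1R, GPNMB and RAB27A were at 1 FPKM or more in each group, whereas TYR and TRPM1, pigment cell genes of the differentiated state, were listed at 0 in both libraries of every group. The 16 melanocyte genes summed to 179 to 197 FPKM in clone 4 with CPI203, 241 to 279 in clone 4 with DMSO, 356 to 361 in parental cells with CPI203 and 425 to 428 in parental cells with DMSO. No blood cell marker reached 1 FPKM in any of the groups. Epithelial markers, mostly keratins, summed to 165 to 210 FPKM in clone 4 with CPI203, 195 to 251 in clone 4 with DMSO, 99.9 to 103 in parental cells with CPI203 and 109 to 134 in parental cells with DMSO, with the epithelial cadherin CDH1 at 0 in all 4 groups. Fibroblast and endothelial markers summed to 10.4 to 11.6 FPKM in clone 4 with CPI203, 25.3 to 30.1 in clone 4 with DMSO, 4.2 to 4.57 in parental cells with CPI203 and 9.49 to 10.6 in parental cells with DMSO, with PECAM1 at 0 in all 4 groups. Their part in the results was not tested. In such bulk libraries, fewer cells expressing a gene and less RNA of it per cell cannot be told apart.

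Of the 75 genes, 65 were called weaker in clone 4, and 51 of these were genes that CPI203 lowered in parental cells. Weaker means that the clone 4 effect was smaller in the same direction or did not pass the test. Effects of opposite sign that did not pass, such as those of CXCL1 and IFIT2, are thus included. The 65 genes were sorted by the clone 4 DMSO level relative to the parental DMSO level, which is called the start here. The start had moved along the parental response in 49 genes, meaning that the clone 4 DMSO level differed by at least 1.5-fold, passed the test, and lay on the side to which CPI203 moved parental cells. It was held in 8 genes (the 95% interval of the difference lay within 2-fold either way), had moved against the parental response in 6, and was unresolved in 2, IL10 and KLF5. The other 10 genes were not weaker: 4 responded in opposite directions, 2 responded more strongly in clone 4, and 4 responded in clone 4 only by the test. Clone 4 and parental cells differed under DMSO at 2071 genes (12.2%) in all. The sorting uses the DMSO libraries that also enter the difference, so a chance deviation in them moves both values, and the shares are descriptions rather than tests. The counts of the sorting also moved with single libraries, most of all with the clone 4 DMSO pair. Without clone 4 DMSO replicate 1 there were 76 weaker genes with a start moved along and 15 with a held start, and without clone 4 DMSO replicate 2 there were 101 and 38, with 10 moved against. The held count was 21 without parental DMSO replicate 2, 3 without parental CPI203 replicate 1, 5 without parental CPI203 replicate 2 and 5 without clone 4 CPI203 replicate 2. The fit without the 3 libraries that stand apart leaves 1 library in each of their groups. It cannot check the held class, because the spread of those groups is then taken from the other groups.

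For comparison, among all 3148 genes that CPI203 lowered in parental cells the start had moved along in 17.4%, was held in 63.6% and had moved against in 4.57%. Among the 659 that fell at least 2-fold, the start had moved along in 35.1% and was held in 37.9%. Among all 2297 genes that CPI203 raised in parental cells, the start had moved along in 9.45%, was held in 72.1% and had moved against in 3.83%. For the 353 that rose at least 2-fold, it had moved along in 14.2% and was held in 48.4%. The untreated libraries, which enter neither the difference nor the sorting, gave a second reading of the start. By that reading the start had moved along in 45 of the 45 weaker genes that fell and were sorted as moved along by DMSO. The same held for 541 (98.5%) of all 549 genes that fell in parental cells and were sorted so, and the near-complete share is therefore no feature of the 45. Untreated clone 4 and parental cells differed at 11569 genes (68.3%), many more than under DMSO, with a median standard error of 0.09 untreated and 0.24 under DMSO. In clone 4 the untreated level was not the same as the DMSO level, however, and for 3 genes that CPI203 raised, chosen after their values were seen, it lay towards or past the clone 4 CPI203 level. In clone 4 CTGF averaged 410 FPKM with CPI203, 55.9 FPKM with DMSO and 440 FPKM untreated, HEXIM1 averaged 38.4, 17.3 and 31.0 FPKM, and BRD2 averaged 149, 74.9 and 116 FPKM in the same order. Untreated parental cells had 3.08 FPKM of CTGF, 17.9 FPKM of HEXIM1 and 61.5 FPKM of BRD2. Of 15 polyadenylated histone genes, 15 were higher in untreated clone 4 than in untreated parental cells, against 1 under DMSO. Among all 16935 genes, 4806 were higher untreated and 926 under DMSO, and the 2 comparisons had the unlike errors given above. What set the untreated levels apart was not tested.

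**Figure D1:**
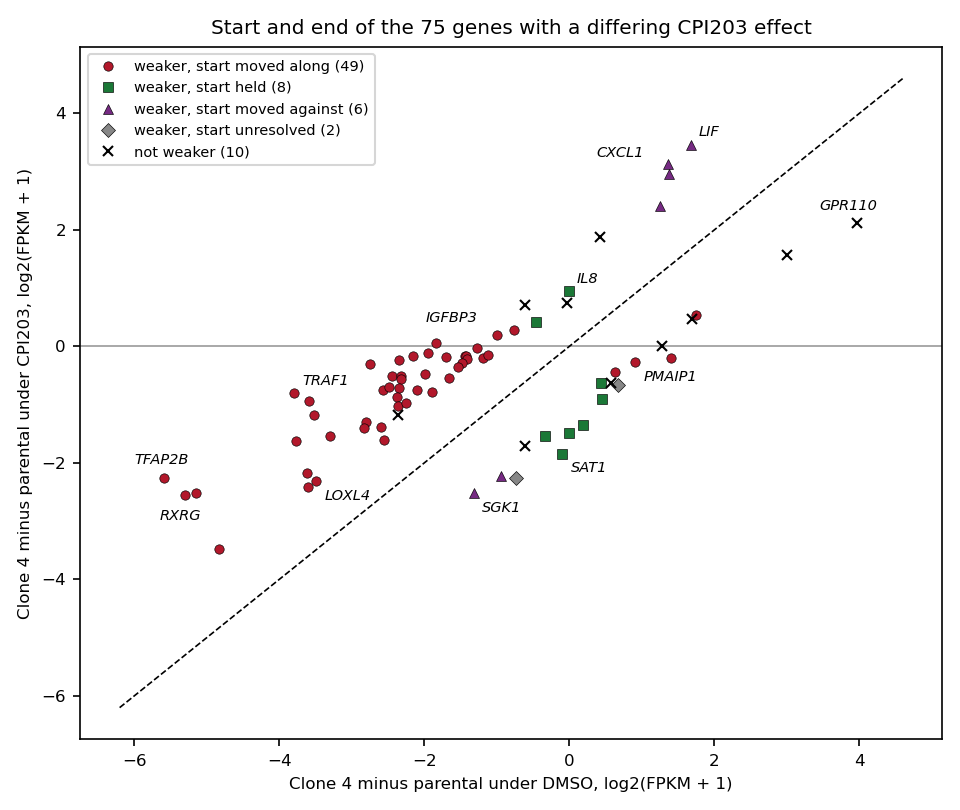
Each point is 1 of the 75 genes, with the clone 4 minus parental difference in log2(FPKM + 1) under DMSO across and under CPI203 upward, and symbols for the sorting by start. The dashed line marks equal differences; of the 49 red circles, the 45 genes that fell in parental cells lie above it at low clone 4 DMSO levels and the 4 rises lie below it at high ones, and the 8 green squares lie near 0 across.

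Of the 45 weaker genes that fell in parental cells and had moved along, 33 were below 1 FPKM in clone 4 with DMSO, and 6 still fell in clone 4 past the test. TFAP2B (chr6:50786435-50815326 in hg19), a neural crest transcription factor of the AP-2 family, had the largest difference. It stood at 0.00545 and 0.0379 FPKM in clone 4 with CPI203 and 0.0771 and 0.122 FPKM in clone 4 with DMSO, against 4.10 and 3.72 FPKM in parental cells with CPI203 and 45.8 and 58.8 FPKM in parental cells with DMSO. All 4 clone 4 libraries were below all 4 parental libraries. CPI203 lowered TFAP2B by 3.43 ± 0.13 on the log2(FPKM + 1) scale in parental cells and changed it by -0.11 ± 0.19 in clone 4 (estimate ± SE). The difference of the effects was 3.33 ± 0.22 (adjusted p = 1.26e-05).

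TRAF1 (chr9:123664670-123691451 in hg19), a signalling adaptor of TNF receptors, differed almost as much. It had 0.805 and 0.765 FPKM in clone 4 with CPI203 and 1.47 and 1.37 FPKM in clone 4 with DMSO, against 2.27 and 1.96 FPKM in parental cells with CPI203 and 33.2 and 32.0 FPKM in parental cells with DMSO. The clone 4 DMSO libraries were already below the parental CPI203 libraries. Its difference of effects was 3.0 ± 0.23 (limma, adjusted p = 2.62e-05). RXRG, a retinoid X receptor, had 0.0154 and 0.128 FPKM in clone 4 with CPI203 and 0.297 and 0.218 FPKM in clone 4 with DMSO, against 5.31 and 5.16 FPKM in parental cells with CPI203 and 50.4 and 46.7 FPKM in parental cells with DMSO. The groups of the 2 populations did not overlap here either, and the difference of effects was 2.76 ± 0.21 (adjusted p = 2.65e-05).

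Further genes of this class behaved alike. Clone 4 with DMSO averaged 0.0843 FPKM of LAD1, which encodes ladinin of the basement membrane, against 12.1 FPKM in parental cells with DMSO, and the difference of effects was 2.66 ± 0.23. PTGES, the inducible prostaglandin E synthase, averaged 0.0517 FPKM in clone 4 with DMSO and 36.2 FPKM in parental cells with DMSO (difference of effects 2.63 ± 0.33). CCDC149 (0.328 and 7.93 FPKM in clone 4 and parental DMSO libraries), TRIM51 (0.0375 and 10.9 FPKM) and PDE3A, a phosphodiesterase of cyclic nucleotides (0.0180 and 13.8 FPKM), had differences of 2.45 ± 0.35, 2.34 ± 0.21 and 2.14 ± 0.37. The replicates of PDE3A in parental cells with DMSO lay apart, at 8.51 and 19.1 FPKM. THBS2, a matrix thrombospondin, averaged 0.284 FPKM in clone 4 with DMSO and 4.21 FPKM in parental cells with DMSO, with a difference of 1.52 ± 0.27; it is given as a member of the matrix list. None of these 6 genes passed the test for a CPI203 effect in clone 4.

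**Figure D2:**
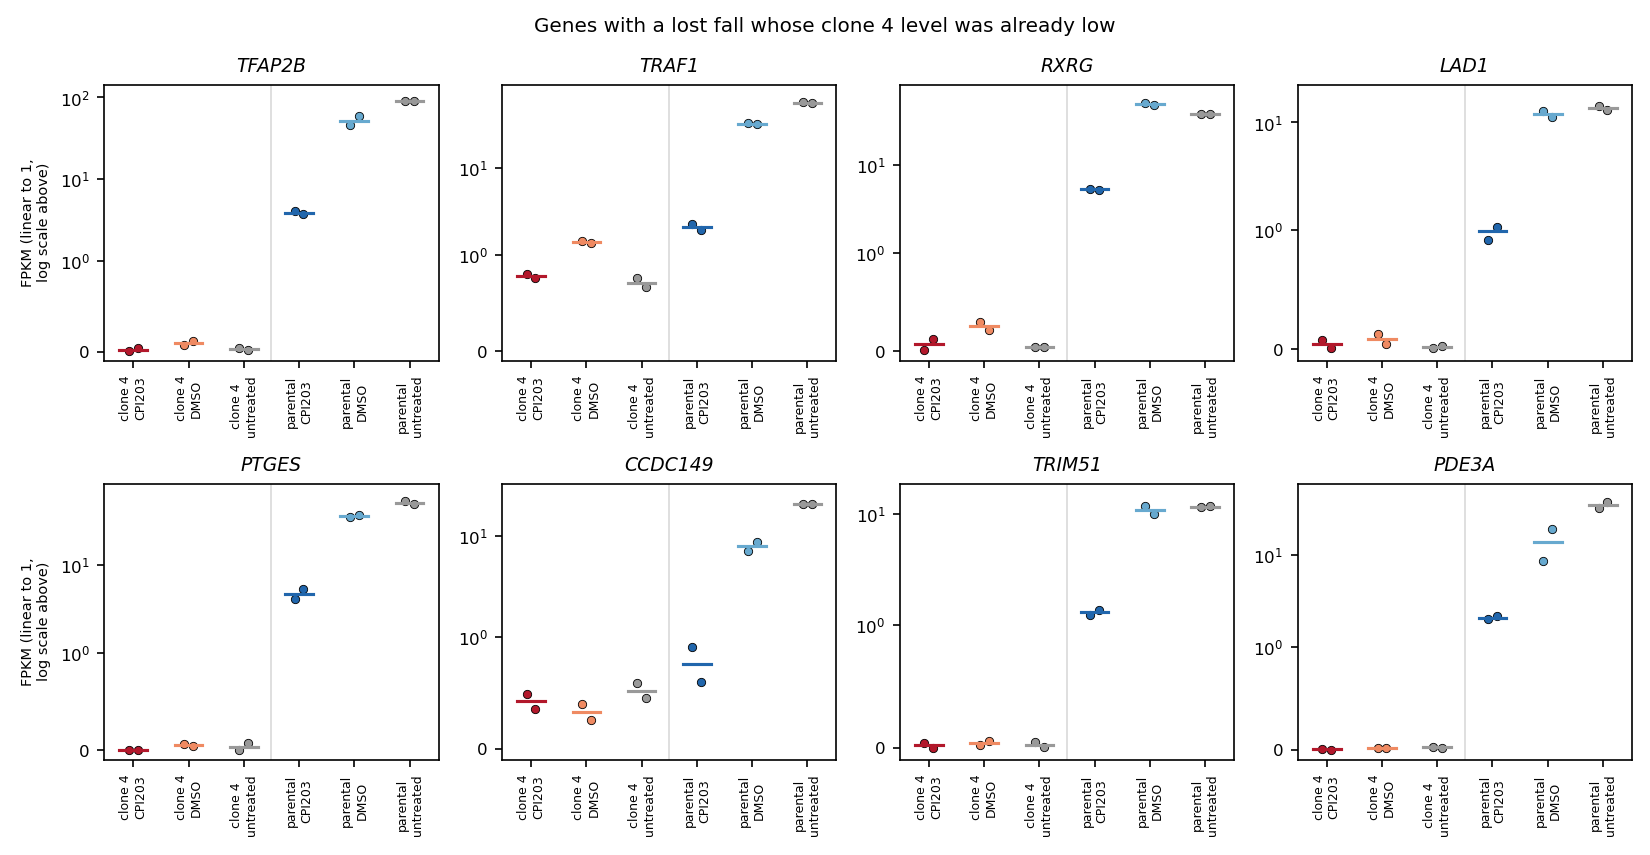
FPKM of 8 genes in each library (points) and the mean of 2 libraries (lines), for clone 4 with CPI203, with DMSO and untreated and then parental cells in the same order; the axis is linear to 1 FPKM and logarithmic above. In every panel the clone 4 libraries lie below the parental DMSO and untreated libraries, and the untreated clone 4 pair is low as the clone 4 DMSO pair is.

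The scale itself bears on these differences. A level cannot fall below 0 FPKM, so the largest fall that log2(FPKM + 1) allows is set by the DMSO level. In 40 of the 45 weaker genes that fell and had moved along, the parental fall was larger than the fall that the clone 4 DMSO level allowed, so the same effect on this scale could not have been recorded. Clone 4 was below 1 FPKM with DMSO in 33 of the 45, and in 36 both clone 4 DMSO libraries were already below both parental CPI203 libraries. Among all genes that CPI203 lowered in parental cells, the fall would not have had room in clone 4 in 10.3%, and among those that fell at least 2-fold in 21.7%. The median gene of the 45 changed by -1.73 in parental cells and -0.13 in clone 4, started 2.35 lower in clone 4 with DMSO (median difference -2.35) and ended 0.71 lower with CPI203 (median -0.71). With CPI203 the 2 populations lay within 2-fold of each other, by the 95% interval, in 21 of the 45, and clone 4 was lower in the other 24.

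Where clone 4 still expressed such a gene, its proportional fall could be as deep as in parental cells. IL1A, an inflammatory cytokine, had 0.104 and 0.0556 FPKM in clone 4 with CPI203 and 1.31 and 1.08 FPKM in clone 4 with DMSO, against 0.558 and 0.525 FPKM in parental cells with CPI203 and 10.5 and 11.4 FPKM in parental cells with DMSO. In both populations the CPI203 libraries were below the DMSO libraries, and CPI203 left 6.65% of the mean DMSO level in clone 4 and 4.93% in parental cells. On the log2(FPKM + 1) scale the effects nevertheless differed by 1.93 ± 0.28 (limma, adjusted p = 0.00657). With a pseudocount of 0.1 this difference no longer passed. That setting also lost DEPDC7, PLK2, IL8 and RARG, which were well above 1 FPKM in every group. SAT1 and TSC22D1 were among the 20 genes that still passed. A loss at this pseudocount is therefore no measure of the room left in clone 4. Chosen after their values were seen, B3GNT7, a glycosyltransferase, kept 8.07% of its DMSO level in clone 4 and 6.89% in parental cells, and DHRS3, a retinaldehyde reductase, kept 11.8% in clone 4 and 19.4% in parental cells. In the other 4 genes without room and with at least 1 FPKM in clone 4 with DMSO (TRAF1, SCARA5, PPAPDC1A and AC017104.6) clone 4 kept 34.6% to 55.5%, and parental cells 5.09% to 16.0%. Of the 45 genes, 7 still passed with a pseudocount of 0.1: TFAP2B, TRAF1, RASL12, IGFBP3, PFKFB3, SLC20A1 and AMACR.

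Room for the parental fall was left in clone 4 in only 5 of the 45: IGFBP3, LOXL4, SLC20A1, AMACR and PFKFB3. IGFBP3 (chr7:45951948-45961473 in hg19), a binding protein of insulin-like growth factors and a known YAP target, had 42.2 and 41.2 FPKM in clone 4 with CPI203 and 75.7 and 71.6 FPKM in clone 4 with DMSO, against 35.7 and 36.8 FPKM in parental cells with CPI203 and 144 and 153 FPKM in parental cells with DMSO. It fell in both populations past the test, and the start was lower in clone 4 in both DMSO libraries. CPI203 changed it by -0.81 ± 0.11 in clone 4 and -2.0 ± 0.08 in parental cells, a difference of 1.20 ± 0.14 (limma, adjusted p = 0.000956). The CPI203 levels of the 2 populations differed by 0.20 ± 0.07 (adjusted p = 0.0660).

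The other 4 of these genes were outside the rule for named genes and are given because they are the remaining ones with room. LOXL4, a lysyl oxidase of the matrix, averaged 5.07 FPKM in clone 4 with CPI203 and 18 FPKM in clone 4 with DMSO, against 29 and 213 FPKM in parental cells with CPI203 and DMSO. It kept 28.2% of the DMSO level in clone 4 and 13.6% in parental cells, and it no longer passed with a pseudocount of 0.1. SLC20A1, a phosphate transporter, kept 85.6% in clone 4 and 41.6% in parental cells, and AMACR, a racemase of fatty acid oxidation, kept 86.7% in clone 4 and 44.7% in parental cells. PFKFB3, a regulator of glycolysis, had 19.3 and 19.0 FPKM in clone 4 with CPI203 and 12.8 and 18.2 FPKM in clone 4 with DMSO, against 24.61 and 25.03 FPKM in parental cells with CPI203 and 43.4 and 48.9 FPKM in parental cells with DMSO. No effect of CPI203 in clone 4 passed the test for SLC20A1, AMACR or PFKFB3.

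**Figure D3:**
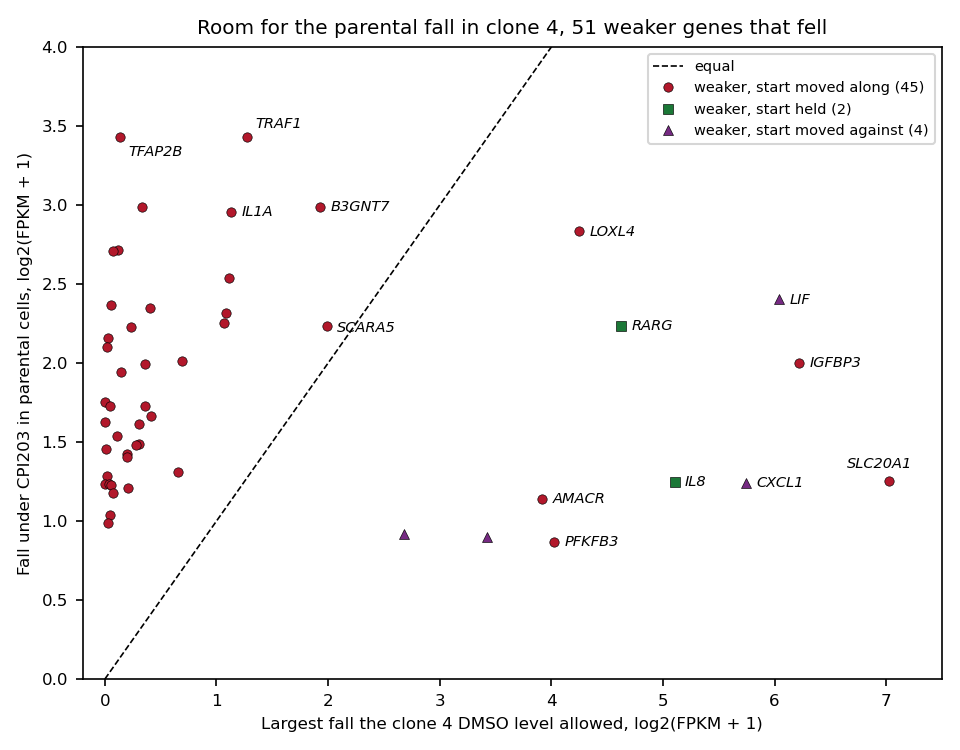
The fall under CPI203 in parental cells (vertical) against the largest fall that the clone 4 DMSO level allowed (horizontal), both in log2(FPKM + 1), for the 51 weaker genes that fell in parental cells. Above the dashed line of equality lie 40 genes for which clone 4 had no room for the parental fall, and below it 5 genes whose start had moved along and the 6 with a held or opposite start.

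Of the 49 genes with a start that had moved along, 4 were genes that CPI203 raised in parental cells. Among all genes, a start moved along was also less frequent for those raised (9.45%) than for those lowered (17.4%) in parental cells. PMAIP1 encodes NOXA, a BH3-only protein that promotes apoptosis. It had 36.9 and 33.3 FPKM in clone 4 with CPI203 and 21.4 and 24.0 FPKM in clone 4 with DMSO, against 44.4 and 40.8 FPKM in parental cells with CPI203 and 11.8 and 11.4 FPKM in parental cells with DMSO. It rose in both populations and ended slightly lower in clone 4 (-0.27 ± 0.09), but clone 4 started higher, by 0.91 ± 0.15 under DMSO and 1.21 ± 0.06 untreated. CPI203 raised it by 0.61 ± 0.15 in clone 4 and 1.79 ± 0.10 in parental cells, a difference of -1.18 ± 0.18 (limma, adjusted p = 0.00718).

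PLK2, a polo-like kinase and p53 target, had 33.5 and 28.2 FPKM in clone 4 with CPI203 and 31.8 and 35.8 FPKM in clone 4 with DMSO, against 36.9 and 34.0 FPKM in parental cells with CPI203 and 11.8 and 12.5 FPKM in parental cells with DMSO. Clone 4 was thus near the parental CPI203 level in all 4 of its libraries. The difference of effects was -1.60 ± 0.30 (adjusted p = 0.0337). TM4SF1, a surface protein of the tetraspanin-like family, averaged 82.3 FPKM in clone 4 with CPI203 and 107 FPKM in clone 4 with DMSO, against 112 and 68.2 FPKM in parental cells with CPI203 and DMSO (difference -1.07 ± 0.16). It is the only 1 of the 49 whose untreated levels did not give the same sorting: untreated clone 4 was at 47.9 and 46.9 FPKM and untreated parental cells were at 58.0 and 58.2 FPKM. For all 4 of these rising genes the 95% interval of the difference between clone 4 and parental cells with CPI203 lay within 2-fold.

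Genes with a held start are those whose response itself differed by this sorting, and 6 of the 8 were genes that rose in parental cells. A held start lay within 2-fold and was not always equal. Under DMSO clone 4 differed from parental cells by 0.44 for DEPDC7 (95% interval 0.085 to 0.792) and -0.46 for RARG (-0.777 to -0.134). For NFKBIZ it differed by 0.45 (-0.042 to 0.936), an interval that nearly reached 2-fold. All of these differences lay on the side of the parental response. SAT1 (chrX:23801289-23804343 in hg19), the acetyltransferase that starts the breakdown of spermidine and spermine, had the largest difference of effects among the 8 genes. It had 60.0 and 60.3 FPKM in clone 4 with CPI203 and 37.5 and 27.7 FPKM in clone 4 with DMSO, against 223 and 213 FPKM in parental cells with CPI203 and 36.2 and 33.1 FPKM in parental cells with DMSO. The DMSO libraries of the 2 populations overlapped, while the CPI203 libraries stood far apart. CPI203 raised SAT1 by 0.88 ± 0.16 in clone 4 and 2.62 ± 0.11 in parental cells, a difference of -1.74 ± 0.19 (limma, adjusted p = 0.000681). Under DMSO the populations differed by -0.10 (95% interval -0.44 to 0.24), and SAT1 passed in each of the 20 alternative fits.

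TSC22D1, a transcription regulator induced by TGF-beta, showed no CPI203 effect past the test in clone 4. It had 92.4 and 90.1 FPKM in clone 4 with CPI203 and 101 and 90.1 FPKM in clone 4 with DMSO, against 269 and 264 FPKM in parental cells with CPI203 and 125 and 116 FPKM in parental cells with DMSO. The clone 4 CPI203 libraries lay beside the clone 4 DMSO libraries and below every parental library. The clone 4 effect was -0.06 (95% interval -0.31 to 0.18), the parental effect 1.14 ± 0.08 and the difference -1.20 ± 0.14 (adjusted p = 0.000956). Its start was slightly lower in clone 4, by -0.33 under DMSO (95% interval -0.58 to -0.09) and -0.35 ± 0.04 untreated.

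DEPDC7 averaged 34.2 FPKM in clone 4 with CPI203 and 33.3 FPKM in clone 4 with DMSO, against 53.4 and 24.3 FPKM in parental cells with CPI203 and DMSO (difference of effects -1.07 ± 0.20). NFKBIZ, a nuclear cofactor of NF-kB, averaged 6.91 and 4.94 FPKM in clone 4 with CPI203 and DMSO, against 13.7 and 3.35 FPKM in parental cells with CPI203 and DMSO (difference -1.34 ± 0.27, limma, adjusted p = 0.0492). It lies at the threshold and passed in 11 of the 20 alternative fits, whereas DEPDC7 passed in 16. For SAT1, TSC22D1, NFKBIZ and DEPDC7 the start was held in the untreated libraries too. Untreated SAT1, however, stood at 76.8 and 73.9 FPKM in clone 4 and at 102 and 109 FPKM in parental cells (difference -0.48 ± 0.06). These levels were above the DMSO levels in both populations, and in clone 4 above the CPI203 level as well.

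MMP1 and TBX10 were held under DMSO but not untreated. MMP1, the interstitial collagenase, had 3.59 and 2.95 FPKM in clone 4 with CPI203 and 1.88 and 1.44 FPKM in clone 4 with DMSO, against 9.83 and 9.88 FPKM in parental cells with CPI203 and 1.39 and 1.28 FPKM in parental cells with DMSO (difference of effects -1.54 ± 0.29). Untreated clone 4 had 3.75 and 3.15 FPKM and untreated parental cells 0.603 and 0.399 FPKM, so untreated clone 4 lay near its own CPI203 level. TBX10, a T-box transcription factor, was likewise low in both DMSO groups (0.102 and 0.152 FPKM in clone 4, 0.0396 and 0.236 FPKM in parental cells) and rose to 1.67 and 1.74 FPKM with CPI203 in clone 4 and to 7.25 and 5.99 FPKM in parental cells. Untreated clone 4 had 1.22 and 1.13 FPKM of it and untreated parental cells 0.0913 and 0.127 FPKM. MMP1 passed in 14 and TBX10 in 15 of the 20 alternative fits.

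In the 2 genes that fell from a held start the response was smaller in clone 4. IL8, a chemokine for neutrophils, had 28.3 and 26.2 FPKM in clone 4 with CPI203 and 36.0 and 31.0 FPKM in clone 4 with DMSO, against 13.8 and 13.4 FPKM in parental cells with CPI203 and 33.5 and 33.8 FPKM in parental cells with DMSO. The DMSO libraries overlapped, and with CPI203 clone 4 was higher in both libraries. The difference of effects was 0.96 ± 0.18 (limma, adjusted p = 0.0300). Untreated, however, IL8 stood at 36.8 and 33.4 FPKM in clone 4 and at 158.5 and 159.3 FPKM in parental cells, so its start was held under DMSO but not untreated. RARG, the retinoic acid receptor gamma, averaged 8.67 and 23.6 FPKM in clone 4 with CPI203 and DMSO, against 6.19 and 32.8 FPKM in parental cells with CPI203 and DMSO. It fell by 1.35 ± 0.15 in clone 4 and 2.23 ± 0.10 in parental cells (difference 0.88 ± 0.18, adjusted p = 0.0492), with an untreated start lower in clone 4 by 1.33 ± 0.06 (difference -1.33). IL8 passed in 15 and RARG in 12 of the 20 alternative fits.

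**Figure D4:**
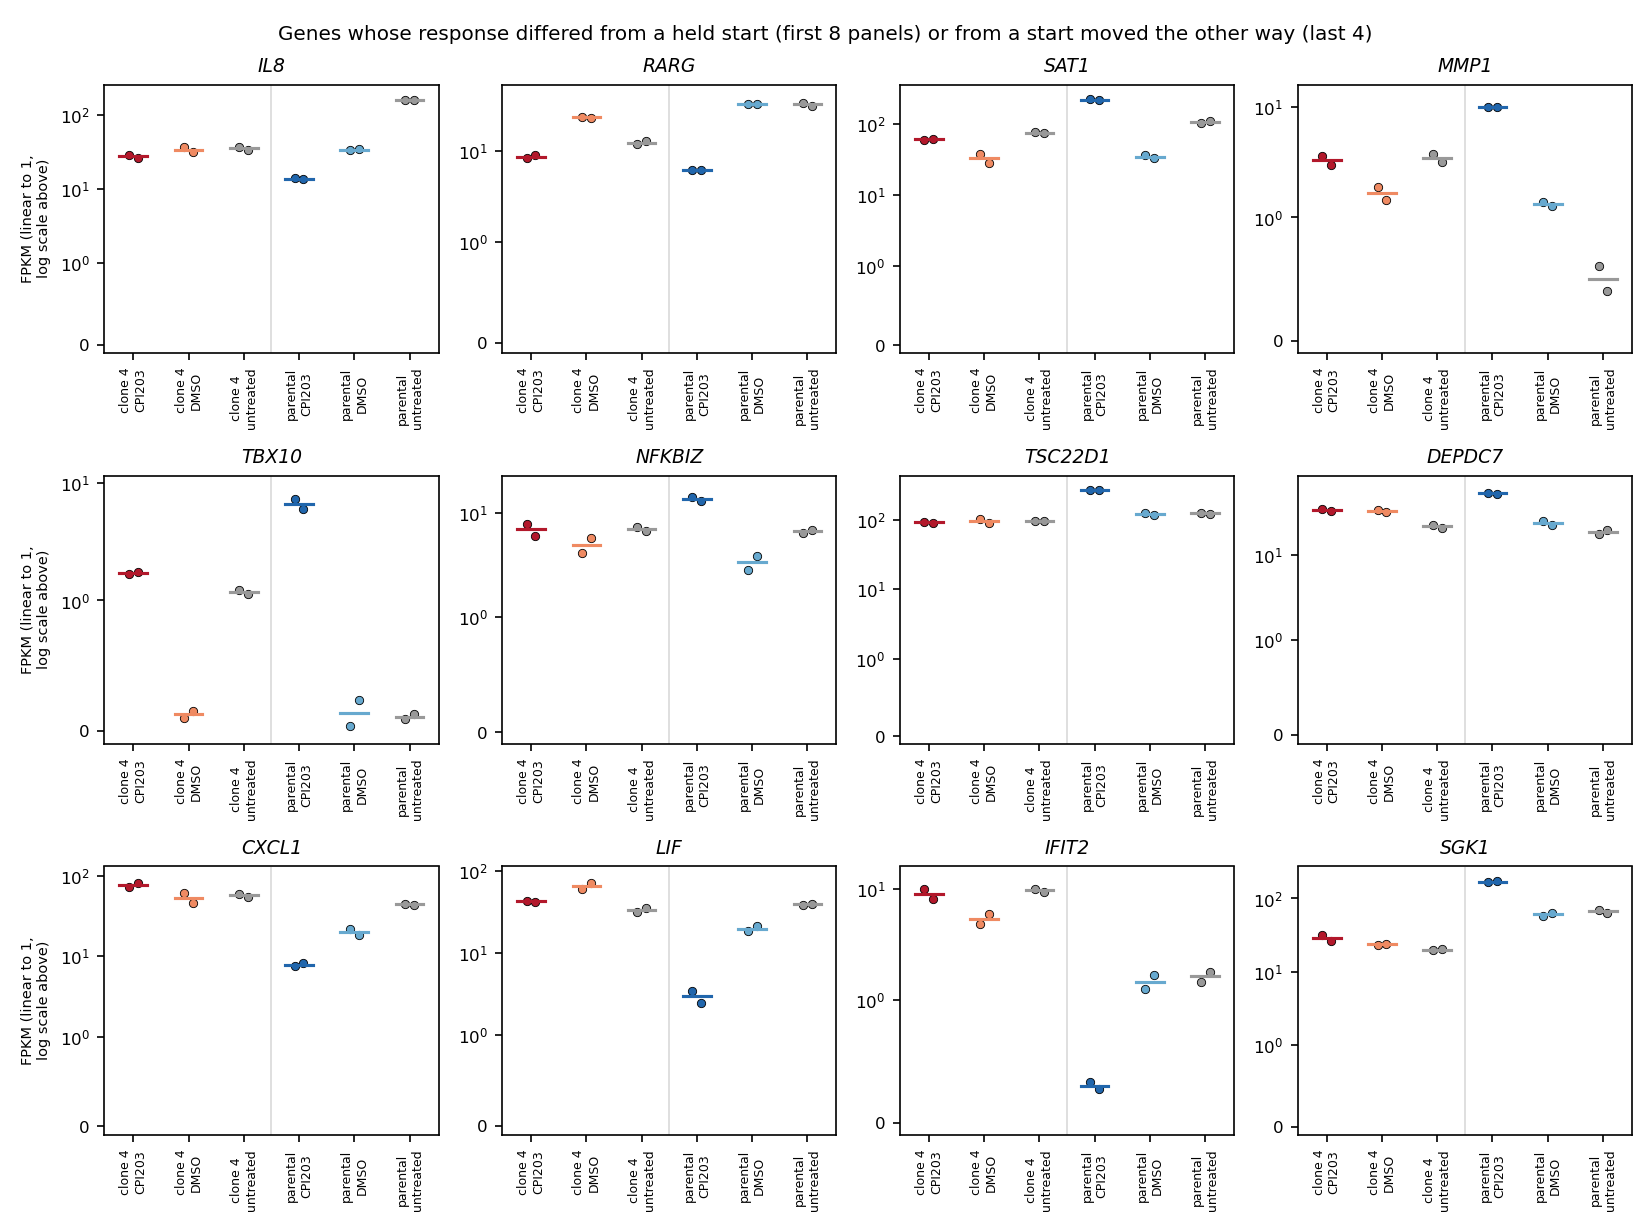
FPKM of 12 genes in each library (points) and the mean of 2 libraries (lines), for clone 4 with CPI203, with DMSO and untreated and then parental cells in the same order; the axis is linear to 1 FPKM and logarithmic above. SAT1 shows equal DMSO levels and unequal CPI203 levels; IL8 shows equal DMSO levels and unequal untreated levels; CXCL1 and LIF are higher in clone 4 than in parental cells with DMSO and further above them with CPI203.

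In 6 genes the clone 4 DMSO level had moved to the side opposite to the parental response, so that the populations lay further apart with CPI203 than with DMSO. CXCL1 (chr4:74735109-74736959 in hg19), a chemokine, had 72.6 and 81.4 FPKM in clone 4 with CPI203 and 60.4 and 45.6 FPKM in clone 4 with DMSO, against 7.5 and 8.19 FPKM in parental cells with CPI203 and 21.8 and 18.1 FPKM in parental cells with DMSO. Clone 4 was higher in all libraries, and its CPI203 libraries were the highest of all. CXCL1 fell by 1.24 ± 0.12 in parental cells, and its clone 4 effect of 0.54 ± 0.18 did not pass (adjusted p = 0.125). The difference of effects was 1.78 ± 0.22 (limma, adjusted p = 0.00201).

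LIF (chr22:30636435-30642840 in hg19), a cytokine of the IL6 family, had 42.6 and 41.4 FPKM in clone 4 with CPI203 and 59.72 and 70.03 FPKM in clone 4 with DMSO, against 3.38 and 2.47 FPKM in parental cells with CPI203 and 18.2 and 21.1 FPKM in parental cells with DMSO. CPI203 left 64.8% of the mean DMSO level in clone 4 and 14.9% in parental cells, and the effects differed by 1.79 ± 0.31 (adjusted p = 0.0202). Untreated, CXCL1 and LIF lay within 2-fold of each other in the 2 populations: CXCL1 differed by 0.36 ± 0.07 and LIF by -0.22 ± 0.10.

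The interferon-induced genes IFIT2 and IFIT1 were higher in clone 4 with DMSO and untreated, and they fell in parental cells only by the test. IFIT2 had 10.1 and 8.26 FPKM in clone 4 with CPI203 and 4.83 and 6.00 FPKM in clone 4 with DMSO, against 0.331 and 0.272 FPKM in parental cells with CPI203 and 1.25 and 1.68 FPKM in parental cells with DMSO. Its difference of effects was 1.58 ± 0.27 (limma, adjusted p = 0.0202), and that of IFIT1 was 1.17 ± 0.22 (adjusted p = 0.0303). Of the rising genes, SGK1, a serum- and glucocorticoid-induced kinase chosen here after its values were seen, averaged 28.9 and 23.8 FPKM in clone 4 with CPI203 and DMSO, against 170 and 60.55 FPKM in parental cells with CPI203 and DMSO (difference -1.21 ± 0.17). WNT9A, a WNT ligand, averaged 4.82 and 1.19 FPKM in clone 4 with CPI203 and DMSO, against 26.0 and 3.21 FPKM in parental cells with CPI203 and DMSO (difference -1.28 ± 0.22). WNT9A rose in both populations, by 1.41 ± 0.18 in clone 4 and 2.69 ± 0.12 in parental cells, and its untreated start differed by 0.31 ± 0.07, within 2-fold.

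**Figure D5:**
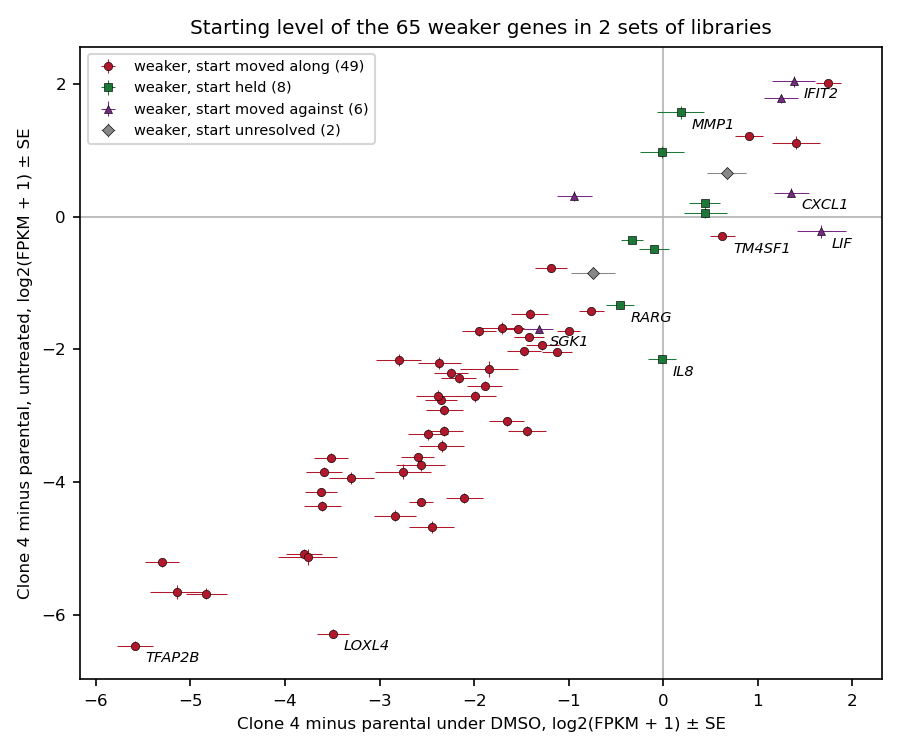
The clone 4 minus parental difference under DMSO (horizontal) and untreated (vertical), in log2(FPKM + 1) with standard errors, for the 65 genes with a weaker response in clone 4. The 45 genes low in clone 4 under DMSO that fell in parental cells are low untreated as well; IL8 and RARG lie near 0 across but below 0 untreated, and CXCL1 and LIF lie right of 0 but near 0 untreated.

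Of the 10 genes that were not weaker in clone 4, 4 moved in opposite directions. HSPA5, the chaperone BiP of the endoplasmic reticulum, had 514 and 499 FPKM in clone 4 with CPI203 and 346 and 380 FPKM in clone 4 with DMSO, against 305 and 300.2 FPKM in parental cells with CPI203 and 381 and 363 FPKM in parental cells with DMSO. It rose by 0.48 ± 0.13 in clone 4 and fell by 0.30 ± 0.09 in parental cells from overlapping DMSO levels (effect -0.30; difference 0.78 ± 0.15, limma, adjusted p = 0.0432), and passed in 10 of the 20 alternative fits. RCAN1, an inhibitor of calcineurin, averaged 17.0 and 26.6 FPKM in clone 4 with CPI203 and DMSO, against 58.1 and 41 FPKM in parental cells with CPI203 and DMSO (difference -1.11 ± 0.17). ZCCHC24, a zinc finger gene, averaged 9.03 and 5.64 FPKM in clone 4 with CPI203 and DMSO, against 21.7 and 33.1 FPKM in parental cells with CPI203 and DMSO (difference 1.18 ± 0.17).

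GPR110, an adhesion receptor coupled to G proteins, and C15orf54 fell by more in clone 4 on the log2(FPKM + 1) scale, where they started higher. GPR110 had 5.06 and 3.63 FPKM in clone 4 with CPI203 and 36.4 and 39.2 FPKM in clone 4 with DMSO, against 0.324 and 0.120 FPKM in parental cells with CPI203 and 1.17 and 1.83 FPKM in parental cells with DMSO. With parental DMSO levels near 1 FPKM the parental fall had little room on this scale. In proportion, GPR110 kept 11.5% of its mean DMSO level in clone 4 and 14.8% in parental cells, and C15orf54 kept 19.4% in clone 4 and 17.0% in parental cells. Neither difference passed with a pseudocount of 0.1, a setting that well expressed genes such as DEPDC7 and PLK2 did not pass either. The difference was -1.85 ± 0.34 for GPR110 (limma, adjusted p = 0.0303) and -1.44 ± 0.28 for C15orf54. SHISA2, a modulator of WNT and FGF receptors, averaged 12.6 and 25 FPKM in clone 4 with CPI203 and DMSO, against 20.0 and 16.4 FPKM in parental cells with CPI203 and DMSO (difference -1.21 ± 0.20). The other 3 genes with an effect in clone 4 only by the test, PDGFB, NDUFA7 and AC005336.1, stayed below 3 FPKM in all 8 libraries. Leaving out parental DMSO replicate 1 gave 4 genes that were not weaker, leaving out parental DMSO replicate 2 or parental CPI203 replicate 1 gave 6, and leaving out clone 4 DMSO replicate 1 or 2 gave 19 or 62.

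By pathway, most lists held few or no genes with a differing effect, and the NF-kB list held the most. The lists were chosen with earlier results of these data known, so their counts are descriptions and no tests. Of 26 genes measured in the list of NF-kB subunits, feedback genes and cytokines, 5 had a higher effect in clone 4 and 0 a lower one, where 0.325% and 0.118% of all genes did: TRAF1 and IL1A with a start moved along, IL8 with a held start, and CXCL1 and LIF with a start moved against. NFKBIZ, the NF-kB cofactor with a lower effect, is not in the list. CPI203 lowered 4 genes of the list in clone 4 (0 rose), and lowered 11 and raised 1 in parental cells, beside 2.8% of all genes lowered in clone 4 and 18.6% in parental cells. The median difference of effects over the list was 0.11, against -0.02 over all genes. The parental effect is subtracted in the difference, so all genes are no like background for a list with many parental falls. NFKB1, a subunit and itself a target of the pathway, named after its values were seen, fell in both populations without passing for a difference, averaging 17.5 and 31.4 FPKM in clone 4 with CPI203 and DMSO, against 15.2 and 34.9 FPKM in parental cells with CPI203 and DMSO (difference 0.34 ± 0.18).

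The promoters of 3 of these genes are shown because they differ in how the start related to the response. They run from 250 bases before to 50 after the annotated start in RefSeq (GRCh38.p14, strand of the gene), at chr4:73869143-73869442 for CXCL1 and chr4:73740319-73740618 for IL8, listed as CXCL8 (both plus strand), and at chr9:120929122-120929421 (minus strand) for the first of 3 TRAF1 windows. Capitals mark GGANTTTCC, searched on both strands as a form of the NF-kB motif.
CXCL1: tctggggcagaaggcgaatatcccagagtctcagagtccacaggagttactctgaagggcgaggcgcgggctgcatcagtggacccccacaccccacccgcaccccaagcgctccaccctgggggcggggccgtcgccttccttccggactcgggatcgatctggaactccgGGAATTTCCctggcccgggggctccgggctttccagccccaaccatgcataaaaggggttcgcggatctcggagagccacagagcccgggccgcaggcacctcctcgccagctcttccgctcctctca
IL8: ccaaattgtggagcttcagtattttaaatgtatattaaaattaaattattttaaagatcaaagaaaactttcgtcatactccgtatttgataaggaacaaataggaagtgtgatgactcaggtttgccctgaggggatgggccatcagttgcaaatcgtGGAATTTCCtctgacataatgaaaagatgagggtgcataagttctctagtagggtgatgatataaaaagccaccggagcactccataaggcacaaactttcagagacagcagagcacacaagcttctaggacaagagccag
TRAF1: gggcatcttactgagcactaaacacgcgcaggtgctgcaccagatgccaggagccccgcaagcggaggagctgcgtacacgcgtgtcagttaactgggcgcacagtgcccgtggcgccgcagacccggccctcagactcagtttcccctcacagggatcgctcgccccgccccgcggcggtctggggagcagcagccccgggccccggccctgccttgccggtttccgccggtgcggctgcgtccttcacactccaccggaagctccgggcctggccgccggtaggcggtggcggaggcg
CXCL1 and IL8 hold the motif, and the windows of TRAF1 and IL1A hold none with these letters. It occurs in 577 of 35116 windows (1.64%), and in 4 of the 94 windows (4.26%) of the 57 genes with a differing effect that matched.

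Over all genes tested, 0.325% had a higher effect in clone 4 and 0.118% a lower one. In the list of neural crest and retinoid factors 3 of 18 genes had a higher effect in clone 4 (TFAP2B, RXRG and RARG) and 0 a lower one. In the type I interferon list 2 of 22 were higher (IFIT1 and IFIT2). CPI203 lowered 2 and raised 1 of that list in clone 4, beside 2.8% and 1.51% of all genes. In parental cells it lowered 12 and raised 3, beside 18.6% and 13.6% of all genes. In the lists of matrix genes (27 measured), 1 effect was higher (THBS2) and 1 lower (MMP1). A single gene passed in some further lists: IGFBP3 of 19 YAP targets, HSPA5 of 22 ATF4 and unfolded protein genes and PTGES of 9 prostaglandin genes with a higher effect, and PMAIP1 of 9 BH3-only and effector genes, PLK2 of 20 p53 targets, SAT1 of 11 polyamine genes and WNT9A of 18 WNT genes with a lower one.

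Among those without a differing gene, the E2F and replication list had many falls in parental cells. CPI203 lowered 4 of its 34 genes in clone 4 (0 rose) and 22 in parental cells (2 rose), where it lowered 2.8% of all genes in clone 4 and 18.6% in parental cells, with a median effect of -0.21 in clone 4 and -0.53 in parental cells and a median difference of 0.27. The difference was above 0 in 31 of the 34, against 46.6% of all genes. The parental effect is subtracted in the difference, so a list with many parental falls leans above 0. All genes are therefore no like background for that count. The smallest adjusted p was 0.381 (limma), and the median standard error in this list was 0.21. Of 15 polyadenylated histone genes, CPI203 raised 7 in clone 4 and 12 in parental cells, beside 1.51% and 13.6% of all genes. The median effect over this list was 1.35 in clone 4 and 1.74 in parental cells. The other lists without a differing gene were BET and P-TEFb (14 genes measured), MYC network (14), anti-apoptotic BCL2 (5), death receptors and caspases (16), G1 regulators (13), AP-1 and immediate early genes (20), MAPK output (19), cholesterol and fatty acid synthesis (19), NOTCH (11), melanocyte lineage (8), receptor kinases (15), epithelial markers (5) and fibroblast and endothelial markers (4).

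HEXIM1 and BRD2, genes close to the action of the inhibitor, rose in both populations. HEXIM1 had 37.5 and 39.3 FPKM in clone 4 with CPI203 and 15.7 and 18.9 FPKM in clone 4 with DMSO, against 61.9 and 60.3 FPKM in parental cells with CPI203 and 19.5 and 20.0 FPKM in parental cells with DMSO. It rose by 1.11 ± 0.14 in clone 4 and 1.58 ± 0.09 in parental cells, and the difference of -0.47 (95% interval -0.83 to -0.11) did not pass the adjustment (limma, adjusted p = 0.688). BRD2 averaged 149 and 74.9 FPKM in clone 4 with CPI203 and DMSO, against 187 and 75.6 FPKM in parental cells with CPI203 and DMSO (difference -0.30 ± 0.15). BRD3 had a difference of 0.18 ± 0.32. MYC averaged 18.9 and 11.1 FPKM in clone 4 with CPI203 and DMSO, against 9.61 and 8.76 FPKM in parental cells with CPI203 and DMSO, and it was not lowered in either (difference 0.59 ± 0.25, adjusted p = 1.0).

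Of the apoptosis and cell cycle genes, PMAIP1 alone passed. CDKN1A, the cyclin-dependent kinase inhibitor p21, had 173 and 209.7 FPKM in clone 4 with CPI203 and 207 and 165 FPKM in clone 4 with DMSO, against 155 and 162 FPKM in parental cells with CPI203 and 76.1 and 72.1 FPKM in parental cells with DMSO. Its pattern was that of a start moved along, with a difference of effects of -1.04 ± 0.23 that missed the threshold (limma, adjusted p = 0.0849). BCL2L1, which encodes the anti-apoptotic BCL-XL, averaged 61.4 and 64.5 FPKM in clone 4 with CPI203 and DMSO, against 13.3 and 21.6 FPKM in parental cells with CPI203 and DMSO (difference 0.59 ± 0.19, adjusted p = 0.476). BCL2L11, MCL1, BAX and CCND1 had differences of 0.11 ± 0.26, -0.06 ± 0.20, -0.10 ± 0.28 and -0.36 ± 0.19. CTGF, a YAP target, rose in both populations from a DMSO level higher in clone 4, with 399 and 421 FPKM in clone 4 with CPI203 and 53.9 and 57.8 FPKM in clone 4 with DMSO, against 74.1 and 75.2 FPKM in parental cells with CPI203 and 8.88 and 9.41 FPKM in parental cells with DMSO. Its effects were 2.85 ± 0.14 in clone 4 and 2.90 ± 0.10 in parental cells, a difference of -0.05 (95% interval -0.42 to 0.33).

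After CPI203, clone 4 and parental cells differed at 4651 genes (27.5%). Among the 75, clone 4 was lower than parental cells with CPI203 in 37, within 2-fold in 28 and higher in 10. The same difference of effects for clone 1, the second tolerant clone, passed in 353 genes (2.08%) with smaller errors, and it shares the parental libraries with that of clone 4. The clone 4 and clone 1 effects themselves share no library and could be compared directly. They differed in 1 gene (0.0059% of those tested), NDUFA7, which was above 1 FPKM only in clone 4 with DMSO. By limma 111 genes had an unadjusted p below 0.05, and 681 in the comparison of clone 4 with parental effects. Both are less than a share of 0.05 of the 16935 genes, which well-set p-values would give without any difference. These p-values thus ran high, and the near absence of differing genes is no evidence that the clones responded alike. Side by side, the effect in clone 4 and in clone 1 was 0.88 ± 0.16 and 1.08 ± 0.06 for SAT1, -1.35 ± 0.15 and -1.44 ± 0.06 for RARG, 0.54 ± 0.18 and 0.60 ± 0.07 for CXCL1, and -2.87 ± 0.29 and -2.96 ± 0.11 for GPR110. For LIF it was -0.61 ± 0.25 in clone 4 and -0.01 ± 0.10 in clone 1. The median standard error of a clone 4 minus clone 1 difference was 0.25, so smaller differences between the clones could not be resolved in a single gene.

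At the threshold, the last genes inside were RARG and NFKBIZ and ANGPTL1 (adjusted p = 0.0492 each, limma), and the first outside was GPRC5A with a difference of -1.0 ± 0.20 (adjusted p = 0.0530).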

How the data were processed

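The members and gene lists were chosen with earlier results of these data known. The authors deposited 1 table of FPKM per gene with hg19 coordinates. The submitters' processing notes name TopHat 1.4.1 and Cufflinks. The Cufflinks version, the annotation and the strandedness were not given in the sources used here. Read counts were not used, so depth is unknown. The 18 A375 libraries had FPKM sums between 501933 and 637916. Nothing says that the 2 replicates of a group came from separate cultures, so p-values measure only the spread between these libraries. The untreated clone 4 libraries were grouped by title, since 1 label field calls them parental. Cufflinks divides fragments among overlapping genes, so values of such genes are uncertain.

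A pseudocount of 1 was added and values put on the log2 scale. Of 63129 genes, the 16935 that reached 1 FPKM in 2 or more libraries entered a limma model (version 3.58.1, R 4.3.3, trend and robust options) over all 18 A375 libraries, with a mean and a quality weight for each of 9 groups. Residual degrees of freedom were 9, and prior ones 4.8 at the median. Tests are two-sided, with Benjamini-Hochberg adjustment over all genes and a threshold of 0.05. The model was tested on simulated data. A gene is weaker when the difference and the parental effect pass, the difference opposes the parental effect, and the clone 4 effect is smaller in the same direction or does not pass. Named genes are fixed BET, BCL2 and cell cycle genes, the largest differences in each class with at least 5 FPKM in a group, and up to 3 genes of each list; others were named after their values were seen, and some that the rule names are not reported here. Replicate numbers did not pair the libraries, but deviations from the group means were shared. Those of parental DMSO replicate 1 and clone 4 DMSO replicate 1 correlated at 0.721. Clone 4 CPI203 replicate 1 correlated with them at -0.673 and -0.729, so its replicate 2 deviated as they did. Correlations with parental CPI203 replicate 1 were 0.002 to 0.091. The model treats libraries as independent, so its errors and p-values take no account of this shared deviation. Alternatives were other weights, pseudocounts, filters, scalings, samples and starts.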

Additional observations from a re-analysis of the deposited data

Results flagged for a closer look

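Each gene given here is a difference between 2 cell populations under the same treatment, tested by the difference of effects in limma. Values are clone 4 effect minus parental effect on the log2(FPKM + 1) scale. Among genes that fell in parental cells with a start moved along they were 3.33 for TFAP2B, 3.0 for TRAF1, 2.76 for RXRG, 2.66 for LAD1, 2.63 for PTGES, 2.45 for CCDC149, 2.34 for TRIM51, 2.14 for PDE3A, 1.93 for IL1A, 1.52 for THBS2 and 1.20 for IGFBP3. Among rises with a start moved along they were -1.60 for PLK2, -1.18 for PMAIP1 and -1.07 for TM4SF1. From a held start they were -1.74 for SAT1, -1.54 for MMP1, -1.48 for TBX10, -1.34 for NFKBIZ, -1.20 for TSC22D1, -1.07 for DEPDC7, 0.96 for IL8 and 0.88 for RARG. With the start moved against they were 1.79 for LIF, 1.78 for CXCL1, 1.58 for IFIT2, 1.17 for IFIT1 and -1.28 for WNT9A. Among genes not weaker in clone 4 they were -1.85 for GPR110, -1.44 for C15orf54, 1.18 for ZCCHC24, 0.78 for HSPA5, -1.11 for RCAN1 and -1.21 for SHISA2.

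The effects of clone 4 and clone 1 differed in NDUFA7 alone, by -1.28 ± 0.17 (limma, adjusted p = 0.0404). It was listed at 1.64 and 1.24 FPKM in clone 4 with DMSO. In all other A375 libraries, untreated clone 4 and clone 1 among them, it was below 0.01 FPKM. The difference thus rests on the clone 4 DMSO pair alone. Whether the division of fragments among overlapping genes set these values was not tested. With 2 libraries per group, the gap of a single library to the rest of its group could not be tested gene by gene.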

How the results depend on the processing

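The reported 75 genes comprise 49 weaker with the start moved along, 8 held, 6 against, 2 unresolved and 10 not weaker. Without the unresolved, the totals and classes in that order were 388, 223, 73, 19 and 73 with equal weights, and 548, 268, 145, 26 and 109 without the 3 libraries that stand apart; all 75 genes were among both totals. With a pseudocount of 0.1 they were 20 (12 higher and 8 lower), 10, 2, 5 and 3. Without a filter they were 211, 104, 52, 8 and 47, and with a filter at 5 FPKM 34, 27, 2, 4 and 1. Correction for length and GC content gave 128, 79, 20, 8 and 21, and only the 8 libraries 17 (15 higher and 2 lower), 15, 1, 0 and 1. Leaving out each library in turn gave 58 to 211 genes in all, 40 to 101 along, 3 to 38 held, 5 to 10 against and 4 to 62 not weaker. In these fits, and in the fit without the 3 libraries that stand apart, the lone library of a group was assumed to vary like the other groups. Quantile normalization, median-ratio scaling, no trend and robust options and a difference of at least 1 kept every count within 1.5-fold. So did a start moved at 2-fold and the untreated start, but the untreated start shared only 4 of the 8 held and 3 of the 6 against genes. A weight for each library gave the same counts by construction. The 2 libraries of a group lie equally far from their mean, so their weights equal the group weight. That fit is 1 of the 20 below and no separate check. It also supplies 47 of the 939 values for single named genes. With the replicate number as a block, a replicate block changed the total to 69 genes, 66 of them shared, although the numbers do not pair the libraries. Of 939 values for single named genes, 832 kept their side of the threshold, 95 lost it, 12 gained it and 0 changed direction. In 20 fits TFAP2B, TRAF1, RASL12 and SAT1 passed each time, and 27 genes passed in all or all but 1; for TFAP2B, TRAF1 and RASL12 clone 4 had no room for the parental fall. FPKM without counts leave the counting error unknown, which limits genes below 1 FPKM most.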
